A study of Mus musculus with 15 samples.

Results

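The replication-dependent histone genes encode the core and linker histones that package newly copied DNA. Of 22342 protein-coding genes on chromosomes 1 to 19 and X of the mouse mm9 annotation, 67 have a symbol that starts with Hist1, Hist2, Hist3 or Hist4, and these 67 genes are described here beside the other 22275. They comprise 6 genes of the linker histone H1, 19 of H2A, 18 of H2B, 11 of H3 and 13 of H4. The data are ChIP-seq peak lists from primary wild type C57BL/6 mouse thymocytes that carry both CD4 and CD8 and lack CD69. From the 15 samples of the series come 5 such lists, with 1 CTCF, 2 Rad21 and 2 H3K27ac libraries. Not analysed here were 8 Hi-C samples, from wild type and knockout cells, and 2 inputs. Nothing in the labels says that the replicates came from different mice, and their spread may therefore be technical.

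Replication-dependent histone genes are short, mostly lack introns and are transcribed in S phase, when NPAT gathers at them in the histone locus body. Their mRNAs end in a conserved stem-loop, bound by SLBP, in place of a poly(A) tail. CTCF is a DNA-binding protein that stops loop-extruding cohesin, Rad21 is the kleisin that closes the cohesin ring, and H3K27ac is an acetylation of histone H3 at active promoters and enhancers. These were bulk cells, so a signal in all cells and a stronger signal in a fraction of cells, such as those in S phase, cannot be told apart.

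The members lie in 4 groups and as 2 single genes. The Hist1 genes form a centromere-side cluster of 23 genes (chr13:21807632-22135545, 328 kb) and a telomere-side cluster of 31 genes (chr13:23622919-24026720, 404 kb). The Hist2 cluster holds 9 genes (chr3:96023839-96082924, 59.1 kb) and the Hist3 pair lies at chr11:58762413-58770176. Hist1h2al (chr13:51298057-51298434) and Hist4h4 (chr6:136752589-136752900) stand alone.

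Nearly all members carried the histone stem-loop at their 3' end. This motif, searched within 150 bases after the stop codon with at most 1 mismatch to its consensus, was present at 61 of 67 members and at 2 of 21826 other genes with an annotated stop (0.00916%). The commonest form was found at 39 members, the next forms at 9 and 8, and an example of each is shown here with the loop motif in capitals, since it is the feature that sets these genes apart.
Hist1h3a (chr13:23853754-23853779, minus strand): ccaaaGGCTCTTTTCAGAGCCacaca
Hist1h2bl (chr13:21807582-21807607, minus strand): tcaaaGGCTCTTTTAAGAGCCaccca
Hist1h4d (chr13:23673814-23673839, plus strand): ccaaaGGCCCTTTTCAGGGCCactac
The 6 members without a match were Hist1h4j, Hist1h3g, Hist1h4b, Hist1h2al, Hist2h2be and Hist2h2bb, which says only that these letters are not in that window.

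Promoter motifs differed by family. In the 250 bases before the most upstream start site, on either strand, CCAAT was found at 57 members (85.1%) against 34.8% of other genes, and TATAAA at 33 members (49.3%) against 12.2%. The octamer ATTTGCAT was found at 15 members (22.4%) against 1.55% of other genes. All 15 encode core histones of one kind of dimer, 7 of them H2A and 8 H2B, and no H1, H3 or H4 gene had it. CCAAT was found at every H1, H2A and H2B gene, at 10 of 11 H3 genes and at 4 of 13 H4 genes. Some members also lie head to head: 26 of them form 13 divergent pairs of members with start sites at most 1000 bp apart. The share of other genes in divergent pairs was not computed. The stretches between the start sites of 2 H2A and H2B pairs, with all matches in capitals, show how the pairs share these letters.
Hist2h2ac to Hist2h2be (chr3:96024804-96025043, plus strand): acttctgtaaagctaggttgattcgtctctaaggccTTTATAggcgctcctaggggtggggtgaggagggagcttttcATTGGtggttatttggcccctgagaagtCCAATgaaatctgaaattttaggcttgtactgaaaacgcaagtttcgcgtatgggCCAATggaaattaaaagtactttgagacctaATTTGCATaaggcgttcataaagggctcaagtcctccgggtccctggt
Hist1h2ah to Hist1h2bk (chr13:22127513-22127689, plus strand): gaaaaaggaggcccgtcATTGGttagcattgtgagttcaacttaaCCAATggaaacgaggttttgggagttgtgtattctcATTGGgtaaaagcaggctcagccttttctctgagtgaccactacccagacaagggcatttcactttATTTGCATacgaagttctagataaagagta
Each stretch held 3 CCAAT matches and 1 octamer, and the first also held 1 TATAAA. For H1 and H4 a promoter of each is shown because a Rad21 peak in both replicates covered its start site, with the same motifs in capitals.
Hist1h1a (chr13:23855387-23855536, plus strand): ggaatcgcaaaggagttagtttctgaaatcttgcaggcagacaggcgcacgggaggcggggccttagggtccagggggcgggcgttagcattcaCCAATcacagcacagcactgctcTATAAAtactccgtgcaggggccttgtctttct
Hist1h4d (chr13:23673317-23673466, plus strand): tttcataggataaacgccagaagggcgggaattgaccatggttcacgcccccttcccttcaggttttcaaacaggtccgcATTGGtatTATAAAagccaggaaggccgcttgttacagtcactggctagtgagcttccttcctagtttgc

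A histone gene was counted as marked when a peak lay within 2000 bp of one of its annotated transcription start sites (TSS). H3K27ac was found at most members, Rad21 at more of them than of other genes in each list, and CTCF at fewer. H3K27ac replicate 1 had a peak at 58 members (86.6%) where 43.8% of other genes had one, and replicate 2 at 49 (73.1%) against 42.2%. Rad21 replicate 1 had a peak at 34 members (50.7%) against 34.5% of other genes, and replicate 2 at 50 (74.6%) against 42.0%. CTCF was at 10 members (14.9%) against 23.8%. Regions where the peaks of both replicates overlap, called shared below, were at 53 members for H3K27ac (79.1%, other genes 40.8%) and at 25 for Rad21 (37.3%, other genes 29.7%). With single replicates the shares of members were 79.9% ± 9.50 for H3K27ac and 62.7% ± 16.9 for Rad21 (SD, n = 2). For H3K27ac each replicate differed from the other genes by more than that spread. For Rad21 the replicates differed from each other by more than the shared value differed from that of other genes.

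**Figure D1:**
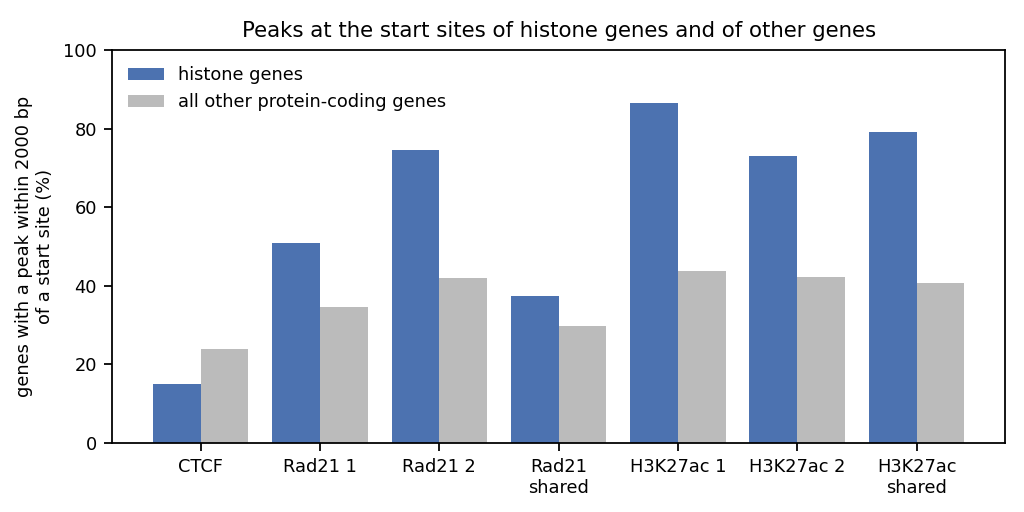
Percentage of the 67 histone genes (blue) and of the 22275 other protein-coding genes (grey) with a peak within 2000 bp of a start site, for each list and for the regions shared by both replicates; each bar is a single count. The H3K27ac bars of the histone genes reach 86.6%, 73.1% and 79.1%, and their CTCF bar, at 14.9%, is below that of the other genes.

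These are counts of peaks without read counts behind them, so no test was made and the depth of the libraries is unknown. Members share peaks, since their 2000 bp windows merge into 33. Counted over these, shared H3K27ac was at 78.8%, shared Rad21 at 45.5% and CTCF at 21.2% of the windows. Other genes with a neighbouring TSS within 10000 bp, a property that 65 of the members have, carried shared H3K27ac in 55.0% of cases, shared Rad21 in 38.2% and CTCF in 29.1%. Against those crowded genes the members were 24.1 percentage points higher for H3K27ac, with differences of −0.855 points for Rad21 and −14.1 points for CTCF. The H3K27ac count also depends on the peaks admitted: where both lists were held to a −log10 q of 5 or more, 7 members (10.4%) and 4.99% of other genes kept a shared region.

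All 25 members with shared Rad21 had shared H3K27ac, where 81.5% of other genes with shared Rad21 did. Conversely, 25 of the 53 members with shared H3K27ac had shared Rad21 (47.2%, other genes 59.3%), and 49 of the 53 had Rad21 in at least 1 list (92.5%, other genes 87.1%). The replicates were uneven, and replicate 2 has the longer list, with 48462 peaks against 38430. Rad21 was listed at 20 members in replicate 2 only (other genes 10.5%) and at 4 in replicate 1 only (2.96%), and 5 members (7.46%, other genes 1.92%) had a peak in both lists at places that did not overlap. CTCF was at 10 of the 53 members with H3K27ac (18.9%, other genes 39.5%). Of the 25 members with shared Rad21, 15 (60.0%) had no shared Rad21 region that a CTCF peak overlapped, as had 42.6% of such other genes. With Rad21 replicate 1 or 2 alone this was 70.6% and 80.0% of members, against 47.4% and 54.6% of other genes.

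**Figure D2:**
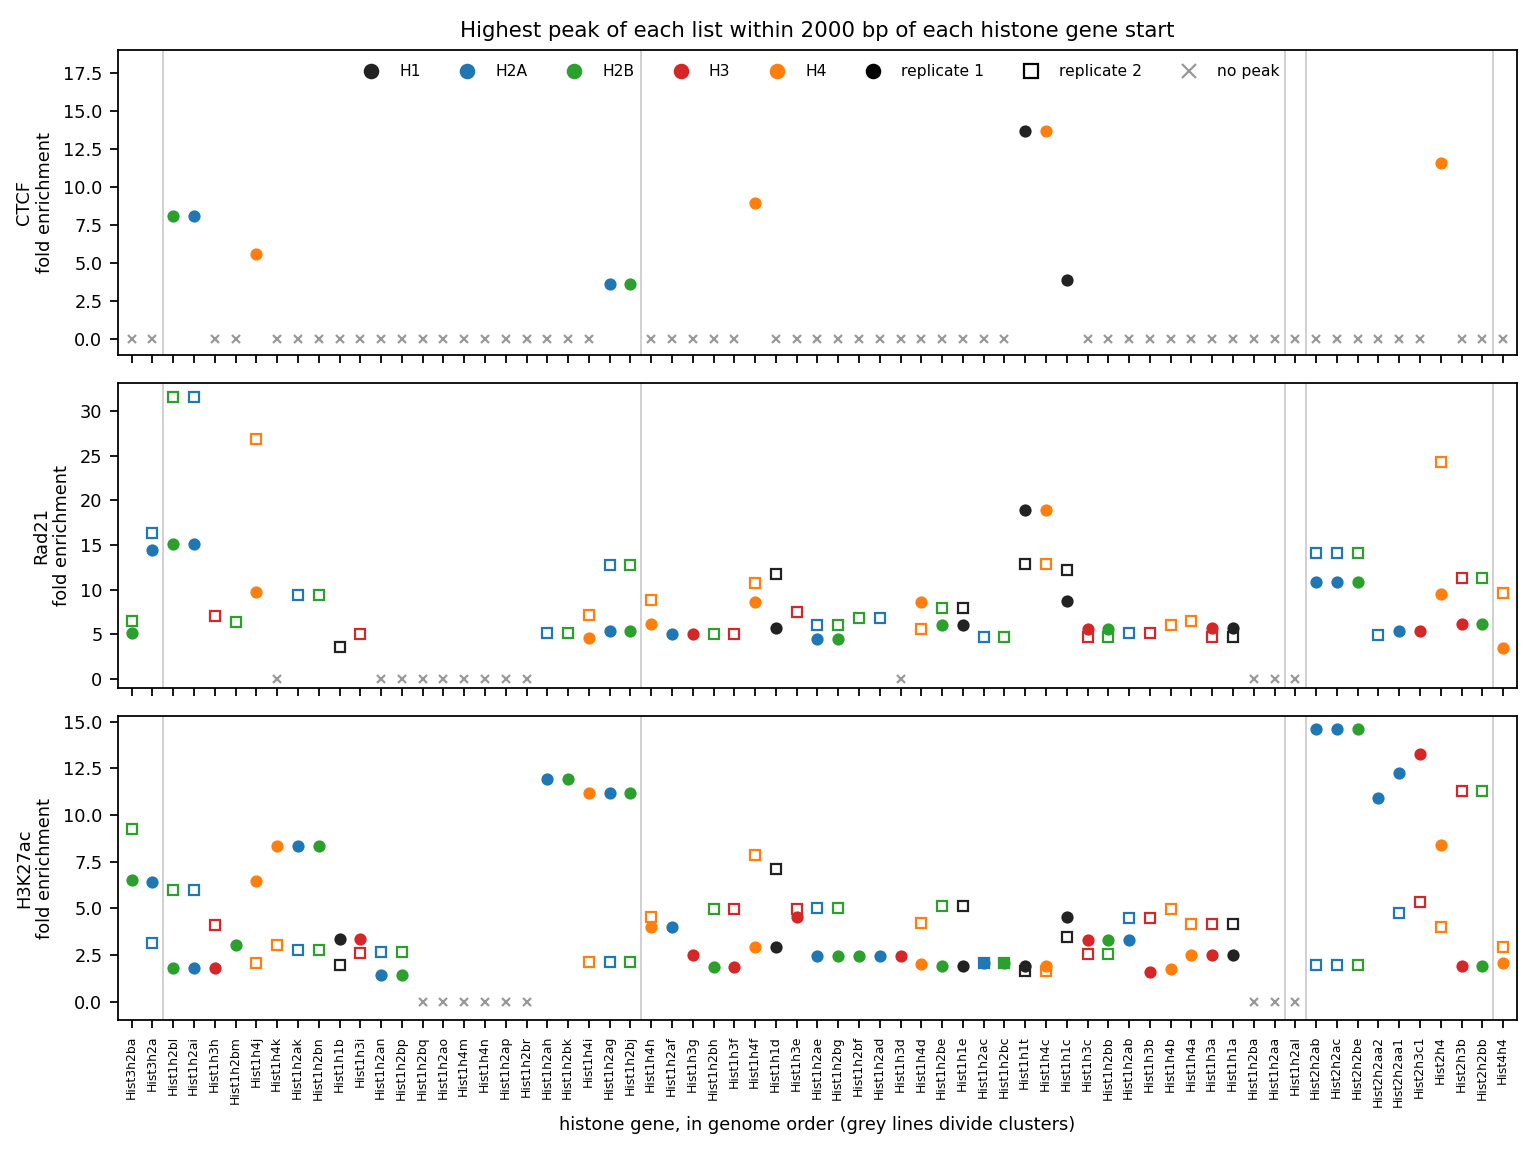
Fold enrichment, the caller's ratio over local background, of the highest peak of each list at each of the 67 histone genes in genome order, coloured by family; filled circles are replicate 1, open squares replicate 2 and crosses genes without a peak. CTCF is present at 10 genes, Rad21 replicate 2 reaches 31.6 at Hist1h2bl and Hist1h2ai, which share a peak, and 9 genes have crosses in every panel.

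Peak heights at histone genes were read within each list. For each list, the highest peak at each member was ranked among all peaks of that list, and its fold enrichment, the ratio over local background that the authors' caller reports, was read. Rad21 folds at members ran from 3.48 to 18.97 in replicate 1, with a median of 5.99 against 7.25 at other genes, and from 3.51 to 31.6 in replicate 2, with a median of 7.09 against 7.61. The median member stood at percentile 33.5 and 46.6 of the 2 lists (other genes 45.9 and 50.7). H3K27ac folds had medians of 2.93 in replicate 1 and 4.13 in replicate 2, where other genes had 2.85 and 3.01, and the median member stood at percentiles 54.9 and 71.3 (other genes 53.3 and 52.9). CTCF folds at the 10 members had a median of 8.08, against 6.85, at percentile 65.9 (other genes 58.4).

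The linker histone genes, whose products bind the DNA between nucleosomes, all had H3K27ac within 2000 bp of a start site. Of the 6, all had shared H3K27ac, 4 had shared Rad21 and 2 had CTCF. This and the family counts that follow stand beside 40.8%, 29.7% and 23.8% of other genes for these calls in turn. Hist1h1c had Rad21 folds of 8.68 and 12.2 with summits 28 and 5 bp after its TSS, a CTCF fold of 3.93 and H3K27ac folds of 4.55 and 3.49. Its shared H3K27ac region was the widest at any member, at 6665 bp. Hist1h1d had Rad21 folds of 5.66 and 11.7 and H3K27ac folds of 2.93 and 7.14, without CTCF. Those Rad21 folds come from different shared regions, of folds 5.66 and 5.27 and of folds 4.96 and 11.7. Hist1h1t, which encodes the testis linker histone, had Rad21 folds of 18.97 and 12.9, but from a peak about as far as the window reaches, 1738 and 1745 bp after its TSS, which is nearer to the start of Hist1h4c. The same holds for its CTCF summit, 1766 bp after the TSS, and its H3K27ac midpoints, 2055 and 2290 bp after it. From the start of Hist1h4c these lay 877, 588 and 353 bp away. Hist1h1a had folds of 5.73 and 4.68 at a summit 3 bp after and 37 bp before its TSS. Hist1h1b had a Rad21 peak in replicate 2 only, of fold 3.51.

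The H2A and H2B genes, whose products form the outer dimers of the nucleosome, carried H3K27ac at most members and shared Rad21 at about the share of other genes. Of 19 H2A genes 13 had shared H3K27ac and 5 shared Rad21 (26.3%, other genes 29.7%), and of 18 H2B genes 13 and 5 (27.8%), with 2 CTCF-marked genes in each family. The pair Hist1h2bl and Hist1h2ai had the highest mean Rad21 percentile of the 2 lists, with folds of 15.1 and 31.6 (percentiles 77.4 and 92.4), on a CTCF peak of fold 8.08. In replicate 1 alone the highest member peak was that of Hist1h1t and Hist1h4c. The peak of Hist1h2bl and Hist1h2ai lies outside the pair, past the 3' end of Hist1h2bl, 1218 to 1238 bp downstream of its TSS. Hist3h2a had Rad21 folds of 14.5 and 16.4 without CTCF, and its annotated start is also that of Trim17, a gene that is no member. Hist2h2ab, Hist2h2ac and Hist2h2be shared a CTCF-free region of folds 10.9 and 14.1, which lies 568 to 582 bp before the start of Hist2h2ab, and H3K27ac folds of 14.6 and 1.99. The pair Hist1h2ag and Hist1h2bj shared Rad21 folds of 5.33 and 12.7 with a CTCF peak of fold 3.67. Most other divergent pairs had Rad21 in 1 replicate or none: Hist1h2ak and Hist1h2bn had a fold of 9.37 in replicate 2 only, and Hist1h2an and Hist1h2bp had no Rad21 peak beside H3K27ac folds of 1.45 and 2.65. The pair Hist1h2ae and Hist1h2bg had Rad21 folds of 4.46 and 6.03 at places that did not overlap, within an H3K27ac region of 4681 bp that reaches 5 members. Hist3h2ba had Rad21 folds of 5.17 and 6.49, also at separate places, and the highest H3K27ac of replicate 2 among H2A and H2B genes outside the Hist2 cluster, at 9.26 beside 6.51 in replicate 1. Hist2h2aa1 and Hist2h2aa2, whose windows were 51.7% and 50.2% unique, had Rad21 folds of 5.40 in replicate 1 only and 4.91 in replicate 2 only.

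The H3 genes had no CTCF peak, and 10 of 11 carried shared H3K27ac. Shared Rad21 was at 3 of them (27.3%, other genes 29.7%). Hist1h3c had Rad21 folds of 5.58 and 4.68 from a region 1150 and 1122 bp before its TSS, which lies on the start of Hist1h2bb. Hist1h3a had folds of 5.73 and 4.68 at a region on the start of Hist1h1a. The remaining H3 genes had Rad21 in replicate 2 only or, at Hist1h3g and Hist2h3c1, in replicate 1 only, with folds from 5.01 to 7.53, and Hist1h3d had none. Hist2h3b, with Rad21 folds of 6.14 and 11.3, had H3K27ac folds of 1.92 and 11.3. Its highest Rad21 summits lay 1039 and 730 bp after its TSS. At none of the 3 H3 genes did the highest Rad21 summit of either replicate lie at the start site itself.

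The H4 genes, whose product pairs with H3 in the core of the nucleosome, had shared Rad21 at 8 of 13 (61.5%, other genes 29.7%). Shared H3K27ac was at 11 of them (84.6%, other genes 40.8%) and CTCF at 4, which at 30.8% is near the 23.8% of other genes. Hist1h4j had Rad21 folds of 9.67 and 26.9 on a CTCF peak of fold 5.62, and H3K27ac folds of 6.46 and 2.097. Hist2h4 had Rad21 folds of 9.48 and 24.3 on a CTCF peak of fold 11.6, Hist1h4c 18.97 and 12.9 on one of 13.7, and Hist1h4f 8.57 and 10.7 on one of 8.97. On its own start site, Hist1h4c also had a shared Rad21 region without CTCF, of folds 8.50 and 9.04. The other 4 H4 genes with shared Rad21 had no CTCF. Hist1h4i had Rad21 folds of 4.59 and 7.11, Hist1h4d 8.59 and 5.53, and the lone Hist4h4 3.48 and 9.62. Hist1h4h had folds of 6.14 and 4.14 at its shared region, and a separate replicate 2 peak of 8.78 lay 705 bp before its TSS. Hist1h4i, Hist1h4d and Hist4h4 had their summits close before the annotated TSS, at 74 and 82 bp, 26 and 102 bp, and 98 and 13 bp in replicates 1 and 2. The annotated start of Hist4h4 is its start codon and that of Hist1h4d lies 4 bp from it, so the true starts may lie elsewhere. The remaining H4 genes outside the inverted arms described below carried H3K27ac without shared Rad21: Hist1h4k had no Rad21 peak, and Hist1h4a and Hist1h4b had it in replicate 2 only, with folds of 6.44 and 6.03. Sequence uniqueness differed between the families alongside: the median share of 36-base words in the promoter window that occur once in the genome was 95.8% for H1, 93.0% for H4, 82.6% for H2A, 82.1% for H2B and 79.6% for H3. Shared Rad21 stood at 4 of 6, 8 of 13, 5 of 19, 5 of 18 and 3 of 11 of them, and the part of uniqueness in these counts was not tested.

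Within the members' windows, most shared Rad21 regions without CTCF overlapped a histone gene. These windows are centred on member starts, so part of that overlap follows from the choice of regions. No such share was computed for other genes. The members' windows held 23 shared Rad21 regions, 22 of them in shared H3K27ac. Of the 16 without CTCF, 14 overlapped the body of a histone gene and 11 covered a start site, and their median folds were 5.93 and 7.49. Of the 7 with CTCF, 3 overlapped a gene body and 3 covered a start site, with median folds of 9.48 and 12.9. Over members, the median distance from the TSS was 536.5 and 530.0 bp for the highest Rad21 summit and 1013 bp for the highest CTCF summit. Paired genes share peaks, and with each of these peaks counted once, from the nearest member's TSS, the medians were 169.5 bp over 22 and 120.5 bp over 34 Rad21 peaks and 736 bp over 7 CTCF peaks, 3 of which lay within 500 bp. Within 500 bp of the TSS, 3 members had CTCF (4.48%, other genes 15.3%), 17 had shared Rad21 (25.4%, other genes 24.3%) and 51 had shared H3K27ac (76.1%, other genes 39.8%), and 13 of the 17 with Rad21 (76.5%, other genes 52.7%) were then free of CTCF.

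**Figure D3:**
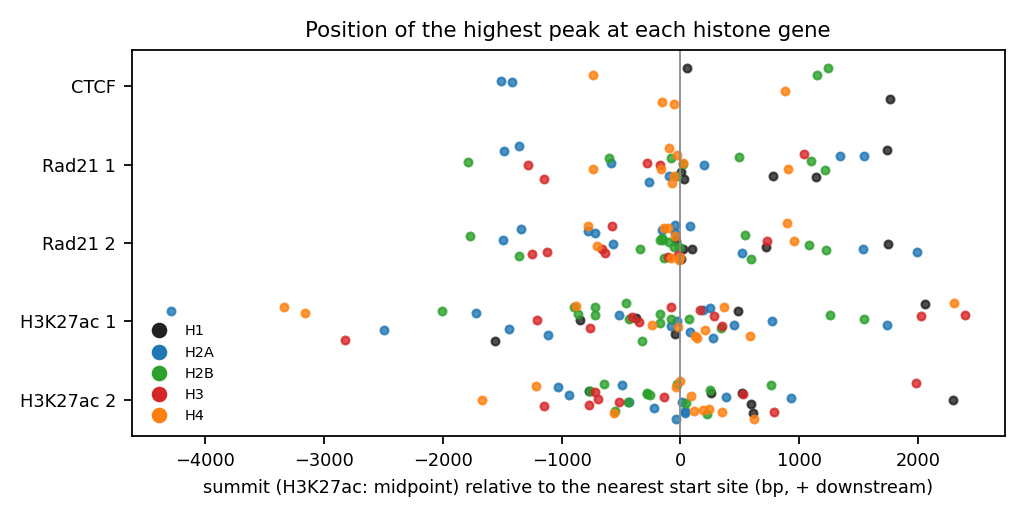
Distance in bp from the nearest start site to the summit (midpoint for H3K27ac) of the highest peak at each histone gene, by list and coloured by family, with positive values downstream; the vertical spread is only for display. The medians over genes are 536.5 and 530.0 bp for Rad21 and 1013 bp for CTCF, and 3 of the 10 CTCF points lie within 500 bp of a start site.

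The CTCF peaks at histone genes all had a match to the CTCF motif. The 10 CTCF-marked members share 7 peaks, each overlapping a shared Rad21 region. A match to the CTCF core consensus with at most 2 mismatches lay within 50 bp of all 7 summits, where 72.4% of all 35345 CTCF peaks had one. Of the matches, 6 were on the minus strand of the genome. The sites are shown on the strand of the match, with the core in capitals, because they are the best matches around these summits.
Hist1h2bl and Hist1h2ai (chr13:21806761-21806813, plus strand): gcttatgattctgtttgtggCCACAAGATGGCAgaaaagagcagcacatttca
Hist1h4j (chr13:21826129-21826181, minus strand): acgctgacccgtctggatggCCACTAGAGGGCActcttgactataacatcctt
Hist1h2ag and Hist1h2bj (chr13:22136167-22136219, minus strand): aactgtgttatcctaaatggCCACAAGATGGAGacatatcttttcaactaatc
Hist1h4f (chr13:23643525-23643577, minus strand): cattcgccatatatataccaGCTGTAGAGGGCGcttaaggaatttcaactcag
Hist1h1t and Hist1h4c (chr13:23789411-23789463, minus strand): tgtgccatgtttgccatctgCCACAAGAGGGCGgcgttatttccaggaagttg
Hist1h1c (chr13:23830732-23830784, minus strand): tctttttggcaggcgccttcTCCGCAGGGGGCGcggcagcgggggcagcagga
Hist2h4 (chr3:96067376-96067428, minus strand): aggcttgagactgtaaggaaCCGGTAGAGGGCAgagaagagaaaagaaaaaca
The site near Hist1h4j matched without a mismatch. The peaks at Hist1h1c and at Hist1h2ag with Hist1h2bj were the weakest, with −log10 q of 1.13 and 1.25 and 2 mismatches each. The site of Hist1h1c lies inside the gene, while those of Hist1h4f and Hist2h4 lie just before their start sites, with summits 55 and 159 bp upstream.

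The clusters were dense in all 3 signals. Over their 799 kb together, the clusters held 22 CTCF peaks, or 27.5 per Mb against 13.4 in the rest of the chromosomes. They held 38 shared Rad21 regions (47.6 per Mb against 11.7) and 35 shared H3K27ac regions (43.8 per Mb against 6.14). The clusters are defined by closely spaced genes, and their spans hold 65 members and 11 other protein-coding genes. Rates per Mb do not allow for this gene density, and its part in them was not tested. These densities also depend on where a cluster ends. Joined only across gaps of at most 50000 bp, the clusters held 75.1 shared Rad21 and 88.6 shared H3K27ac regions per Mb. Per cluster, shared Rad21 came to 24.4 per Mb in the centromere-side Hist1 cluster, 49.5 in the telomere-side one and 118 in the Hist2 cluster.

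The signals were divided between the members' promoters and the rest of the spans, which includes gene bodies and the promoters of other genes. The members' promoter windows cover 19.6% of the spans. They held 29 of the 35 shared H3K27ac regions, 19 of the 38 shared Rad21 regions and 5 of the 22 CTCF peaks. Of the 19 shared Rad21 regions outside the members' windows, 17 were also outside the windows of all other protein-coding genes. Among the 19, 14 overlapped a CTCF peak and 5 shared H3K27ac. The 19 were also higher than those at members' promoters, with median folds of 11.6 and 18.1 against 6.69 and 8.78. The highest was at chr13:23793014-23793484, 2926 bp before the start of Hist1h4c, with Rad21 folds of 45.3 and 51.6 and a CTCF peak of fold 9.73. The next lay at chr13:23689834-23690221, with 41.9 and 41.3, inside the long annotated intron of Hist1h2be.

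**Figure D4:**
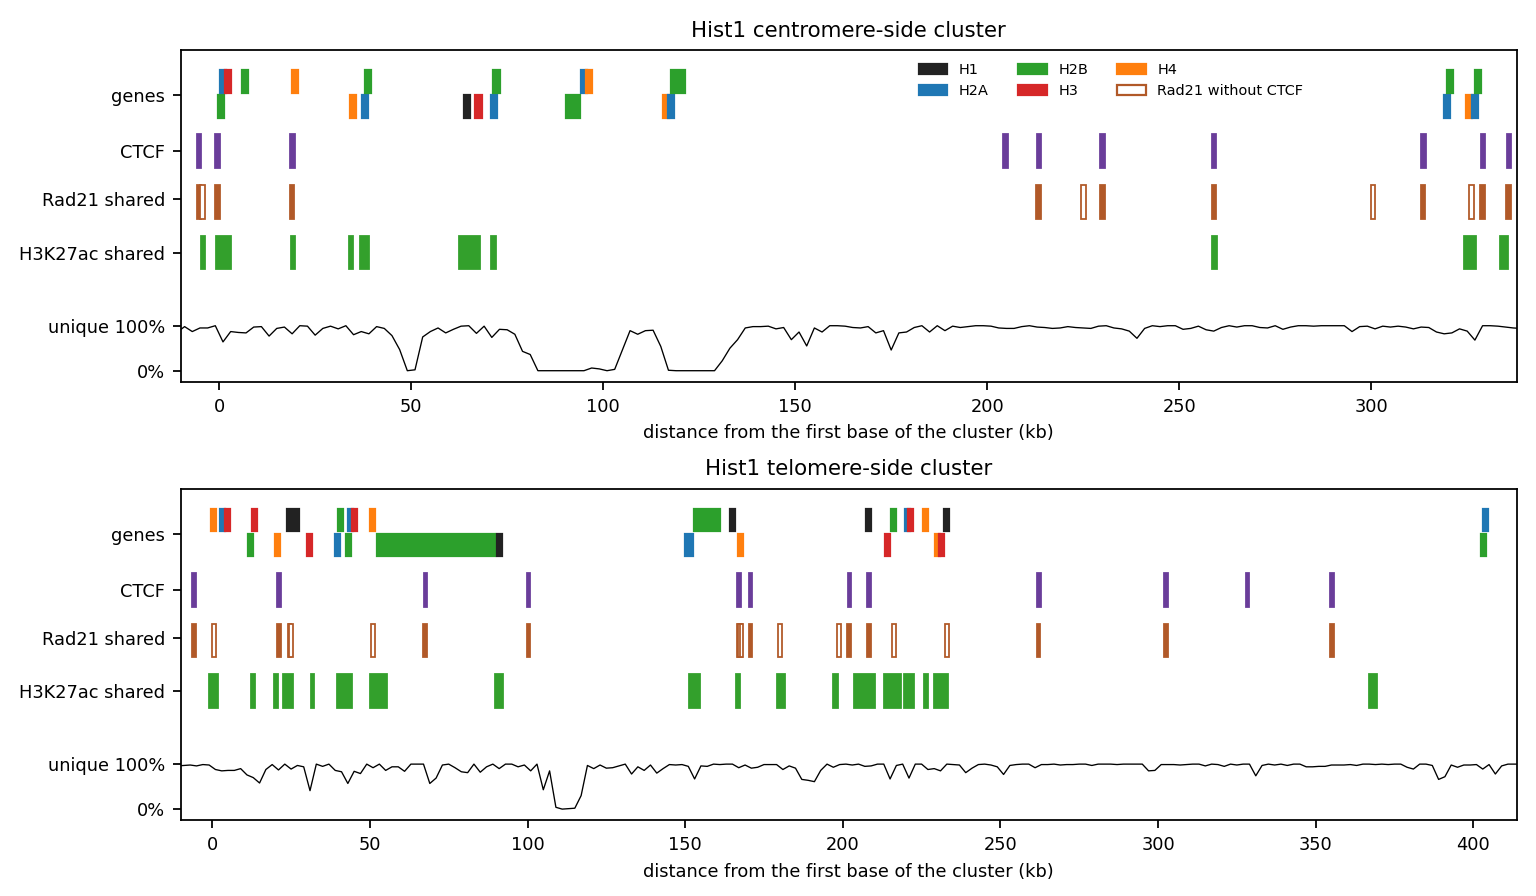
Maps of the 2 Hist1 clusters in kb from the first base of each, with histone genes coloured by family (plus strand above, minus strand below), CTCF peaks, shared Rad21 regions (open where no CTCF peak overlaps), shared H3K27ac regions and the percentage of 36-base words that are unique. Narrow regions and short genes are widened to be visible. H3K27ac follows the genes. The inverted arms near 100 kb in the upper map, with 6 genes, have neither peaks nor much unique sequence. Between the arms, the part beside the first arm also has little unique sequence, and the rest has more.

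Histone genes without peaks fell into different kinds of place. In all, 9 members had no peak in any list (13.4%, other genes 46.0%). Of these, 6 are Hist1h2bq, Hist1h2ao, Hist1h4m, Hist1h4n, Hist1h2ap and Hist1h2br, which form a pair of inverted arms in the centromere-side cluster, chr13:21898281-21904016 and chr13:21923636-21929399. Measured over the span of these genes, the arms, of 5736 and 5764 bp, are 99.98% identical. Just outside the arms, stretches of 2000 bp also had 0.0% unique words. Only 0.498% to 18.4% of the 36-base words in the windows of these genes occur once in the genome, where the median was 83.6% over all members and 97.0% over other genes. Among other genes with under 20% unique words, 0.597% of 838 had an H3K27ac peak in either list. Without these 6 members, shared H3K27ac was at 86.9% of 61 members, shared Rad21 at 41.0% and CTCF at 16.4%. Missing peaks at these 6 genes and peaks hidden by reads that fit both arms cannot be told apart.

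The other peakless genes have more unique sequence than those in the arms, though less of it at Hist1h2al. Hist1h2ba and Hist1h2aa, which encode the testis variants of H2B and H2A, form a divergent pair at the far end of the telomere-side cluster, and 94.0% and 94.5% of their words were unique. They lie 169353 bp past Hist1h1a, and the stretch between holds Trim38 and the transporter genes Slc17a1 to Slc17a4, none with a peak of any list at its start. That stretch held 4 CTCF peaks, 3 shared Rad21 regions and 1 shared H3K27ac region. Hist1h2al, alone on chromosome 13, had 73.6% unique words and no peak, and its model has neither a start codon nor a stem-loop. Members whose windows were over 80% unique, 45 in number, had shared H3K27ac in 86.7% of cases and shared Rad21 in 44.4%, where other genes of that class had 45.2% and 32.97%. The 16 members between 20 and 80% had 87.5% and 31.3%, and other genes of that class 9.95% and 6.44%.

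**Figure D5:**
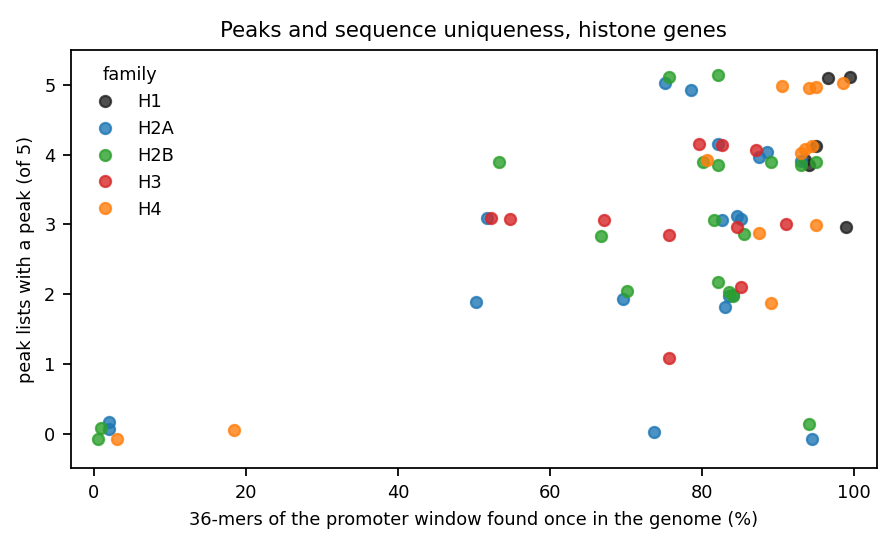
Number of peak lists, of 5, with a peak at each of the 67 histone genes against the percentage of 36-base words in its promoter window that occur once in the genome, coloured by family; the vertical spread within a step is only for display. The 6 genes under 20% have no peak in any list, and the 3 other peakless genes lie at 73.6%, 94.0% and 94.5%.

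The gaps inside and between the clusters differed in density. The stretch of 197582 bp between Hist1h2br and Hist1h2ah held 5 CTCF peaks, 6 shared Rad21 regions and 1 shared H3K27ac region, or 25.3, 30.4 and 5.06 per Mb, where the chromosomes outside the clusters had 13.4, 11.7 and 6.14. Of the 3 protein-coding genes in it, Zfp184 had CTCF and Rad21 and no H3K27ac, and Pom121l2 and Prss16 had no peak. The 1487373 bp between the Hist1 clusters hold 38 protein-coding genes, 32 of them vomeronasal receptor genes of the Vmn1r family, and carried 8 CTCF peaks, 10 shared Rad21 and 6 shared H3K27ac regions. At 5.38, 6.72 and 4.03 per Mb these were all sparser than outside the clusters. Inside the telomere-side cluster Gm17658 and Hfe, the hemochromatosis gene, carried Rad21 and H3K27ac without CTCF. The same shared Rad21 and H3K27ac regions cover the starts of Gm17658 and of the member Hist1h4d.

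Genes that act with the histone genes mostly carried H3K27ac. Of 11 replication-independent histone genes, whose products are also made outside S phase, 8 had shared H3K27ac, 6 shared Rad21 and 5 CTCF, where 40.8%, 29.7% and 23.8% of all other protein-coding genes had these. H2afz had a CTCF fold of 15.9 with Rad21 folds of 28.7 and 41.8, H2afx 4.57 with 5.62 and 5.35, H2afv 3.14 with 4.05 and 6.44, H2afy Rad21 folds of 4.46 and 5.61 without CTCF, and H2afy2 no peak. Of 22 genes for histone gene transcription and 3' end processing, 21 had shared H3K27ac, 12 shared Rad21 and 11 CTCF, beside the same shares. Npat, which activates histone genes, had Rad21 in replicate 2 only, of fold 4.68, Slbp had H3K27ac alone, Casp8ap2 and Lsm10 had Rad21 in 1 list each, and Lsm11, a part of the U7 snRNP, had a CTCF fold of 40.5 with Rad21 folds of 25.6 and 24.0. Of 10 histone chaperone genes, all had shared H3K27ac, 6 shared Rad21 and 6 CTCF, among them Asf1a, Asf1b and Chaf1b with shared Rad21 and Chaf1a and Rbbp4 with Rad21 in replicate 2 only.

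The labelled cell type was checked against its marker genes. All 14 genes found of the double-positive thymocyte list had shared H3K27ac and shared Rad21. Shared H3K27ac was at 1 of 5 B cell genes, 2 of 5 erythroid genes and none of 5 myeloid or 5 thymic epithelial genes.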

How the data were processed

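Groups and replicate numbers came from the labels. The narrow (CTCF, Rad21) and broad (H3K27ac) peak lists, 1 per library, are on mm9 per the submitters' processing notes, which name MACS2 2.1.0, Bowtie 1.0.0, Juicer 0.7.5, HiC-Pro 2.7.8, Bowtie2 2.3.2 and CASAVA 1.84 and 1.82 without roles. The peak thresholds, the controls and what was done with reads of several alignments: not given in the sources used here. A peak carries a fold enrichment, a ratio computed by the authors' caller and used only within a list. It carries −log10 p and −log10 q values as deposited, a score as deposited (not used) and, in narrow lists, the summit offset. Depth is unknown.

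After keeping chromosomes 1 to 19 and X and counting entries of equal coordinates once, the peaks numbered 35345 for CTCF, 38430 and 48462 for Rad21, 38700 and 24765 for H3K27ac. Overlapping peaks of both replicates were merged into 30959 shared Rad21 and 16230 shared H3K27ac regions, with at least 1 bp of overlap. Starts were those of protein-coding transcripts in GENCODE vM1 on NCBIM37, and no peak ran past a chromosome end. At 8 members the gene model starts at the start codon. The annotated starts of Hist1h2be and Hist2h3c1 lie 35168 and 1197 bp from their start codons. Distances, promoter motifs and calls follow the annotated starts. Clusters joined members across gaps of at most 200000 bp. Words of 36 and 50 bases were taken every 20 bp of the windows and searched on both strands. Python 3.11 scripts were tested on simulated data. Members were described beside all other protein-coding genes, with no test. The alternatives tried concern window width, merged windows, q, overlap, single replicates, cluster gaps, start codons and unique sequence.

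The members and lists were chosen with earlier results of these data known. All members could be named. Values were given for the 8 with the highest mean Rad21 percentile (Hist2h2ab ties with Hist2h2ac and Hist2h2be), the 8 highest by CTCF, up to 8 without H3K27ac and the first 2 of each family with shared Rad21, others being chosen after their values were seen. Other lists were named in their order, up to 5. H1f0, Supt16 and Ptcra were not matched to a protein-coding gene of that release.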

Additional observations from a re-analysis of the deposited data

How the results depend on the processing

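No paired analysis was possible because the results come from peak lists without a test, and replicate numbers of different targets are not stated to mark shared cells. With 500 bp on either side of the TSS, CTCF was at 4.48% of members and 76.5% of members with shared Rad21 were free of CTCF; with merged windows this was 53.3%. A −log10 q of 5 or more for H3K27ac left 10.4% of members and 7.51 regions per Mb. Gaps of at most 50000 bp gave 75.1 Rad21 and 88.6 H3K27ac regions per Mb. Leaving out a replicate gave 50.7% to 74.6% of members with Rad21, 73.1% to 86.6% with H3K27ac, 70.6% to 80.0% free of CTCF, 65.1 to 98.9 Rad21 regions per Mb and 50.1 to 52.6 H3K27ac regions per Mb. Windows around the start codon and the omission of members under 20% unique were both chosen after seeing the data. They moved no share by more than the spread between replicates or, for CTCF, the exact 95% binomial interval. That interval covers counting error only and takes members as independent, though some share a peak. In all, 34 values stayed within such limits and 13 did not. The limit is wide for shared Rad21 at members, with an SD of 16.9 points. Its shares of 25.4% with 500 bp windows and 23.9% at a −log10 q of 5 or more, beside 37.3%, stayed within it. Another comparison, with crowded genes, stands in the report. The cause of these changes was not tested. The lists hold no counts, so what depth limits is unknown, and with 1 CTCF library its spread is unknown.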
